A study of Sus scrofa with 9 samples.

Results

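Milk fat is almost all triglyceride, and its assembly in the gland uses a short chain of enzymes that place fatty acids on a glycerol backbone. The genes described here encode 5 of these enzymes: GPAM, AGPAT1, LPIN1, DGAT1 and DGAT2. Their probe sets were taken as all those annotated to 1 of these symbols alone, without regard to their values, which gave 5 of 6765 named genes and 9 of the 23999 endogenous probe sets on the array. GPAM had 3, LPIN1 and DGAT1 had 2 each, and AGPAT1 and DGAT2 had 1 each.

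The samples were mammary gland biopsies of 6 Large White sows fed a corn and soybean diet, with no other treatment given. Every sow was sampled from anterior glands of the right side on 3 days relative to parturition: day -17 (± 2), in late pregnancy; day 1, at the onset of lactation; and day 17, in established lactation. RNA of 2 sows was mixed in equal volumes for each array, so each day has 3 pools and the study has 9 arrays. The same 6 animals stand behind all 3 days, and each pool averages 2 of them. No age was given. A biopsy holds secretory epithelium together with fat, stroma and immune cells, and in such bulk samples fewer cells of a type and less RNA per cell cannot be told apart.

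In the glycerol 3-phosphate pathway, a glycerol 3-phosphate acyltransferase attaches the first fatty acid; GPAM encodes the form in the outer mitochondrial membrane. AGPAT1, in the endoplasmic reticulum, attaches the next and yields phosphatidic acid. LPIN1 is a lipin, which removes the phosphate to give diacylglycerol; it is a phosphatase rather than an acyltransferase, and also acts in the nucleus on the transcription of lipid genes. DGAT1 and DGAT2 attach the last fatty acid. They belong to unrelated protein families, both are active in fat tissue, and mice without Dgat1 do not lactate.

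Signals are the deposited linear MAS5 intensities, scaled on every array to a trimmed mean between 500.088 and 500.112. The number of arrays limits the precision. Within a day, the Spearman correlation of any pair of pools lay between 0.954 and 0.976, and no array stood apart. Differences are log2 differences of the later minus the earlier day ± standard error from limma, with n = 3 pools a day, and p-values are adjusted by Benjamini-Hochberg over the 15519 probe sets that passed a filter on dim signals. Of the 9 probe sets, 8 passed it. The exception, the GPAM probe set Ssc.17346.1.A1_at, lay below the filter level of 82.1 to 94.2 on all 9 arrays, with signals from 5.37 to 63.3, and was not tested. A fixed mean signal makes each difference relative to the rest of the array. When arrays were scaled to their 21 E. coli control probe sets, every log2 difference was lower by 0.43 (day 1 against day -17), 0.87 (day 17 against day 1) or 1.30 (day 17 against day -17). Over the 15519 probe sets the median differences, otherwise -0.065, -0.0092 and -0.081, became -0.49, -0.88 and -1.38, so rises below hold against the rest of the array, and the text says which were lost or turned under that scaling. Neither scaling was set against a measure of RNA per cell, so differences under either are not read as amounts per cell.

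The 5 genes did not move as a group. GPAM rose at both steps, from late pregnancy to day 1 and from day 1 to day 17. DGAT1 was higher in established lactation, and DGAT2 fell by over an order of magnitude by day 1. With day as the only term, AGPAT1 and LPIN1 passed the test in none of the 3 comparisons. When pool number was a fixed block term, LPIN1 passed in all 3 and AGPAT1 in 1 (day 17 against day -17). Among the 8 tested probe sets, 3 were higher and 1 lower on day 1 than on day -17, against 12.0% higher and 12.1% lower among all tested probe sets. On day 17 against day 1, 3 were higher and 0 lower (all tested: 7.02% and 6.61%); 5 of the 8 were not called by limma. On day 17 against day -17, 4 were higher and 1 lower (21.7% and 24.8%). A GPAM and a DGAT1 probe set called higher had all 3 pools of day -17 under the filter level. Both passed the filter through later days alone. With each gene read by its brightest tested probe set, 1 of 5 was higher and 1 lower on day 1 than on day -17. Among all tested genes, 15.3% and 10.4% were. On day 17 against day 1, 2 genes were higher and 0 lower (8.02% and 8.57%). On day 17 against day -17, 2 genes were higher and 1 lower (23.8% and 23.8%). In limma's F test over the 3 days 5 of the 8 differed, where 45.3% of all tested probe sets did. Pools of the compared days did not overlap for 4, 5 and 5 of the 8 in the 3 comparisons, beside 40.8%, 34.7% and 59.0% of all tested probe sets. The 3 comparisons share their days, so they are not independent of each other. Where all 3 pools of a day lay under the filter level, the size of a difference from that day is not well set, and a fold with those pools put at the filter level is given beside it.

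**Figure D1:**
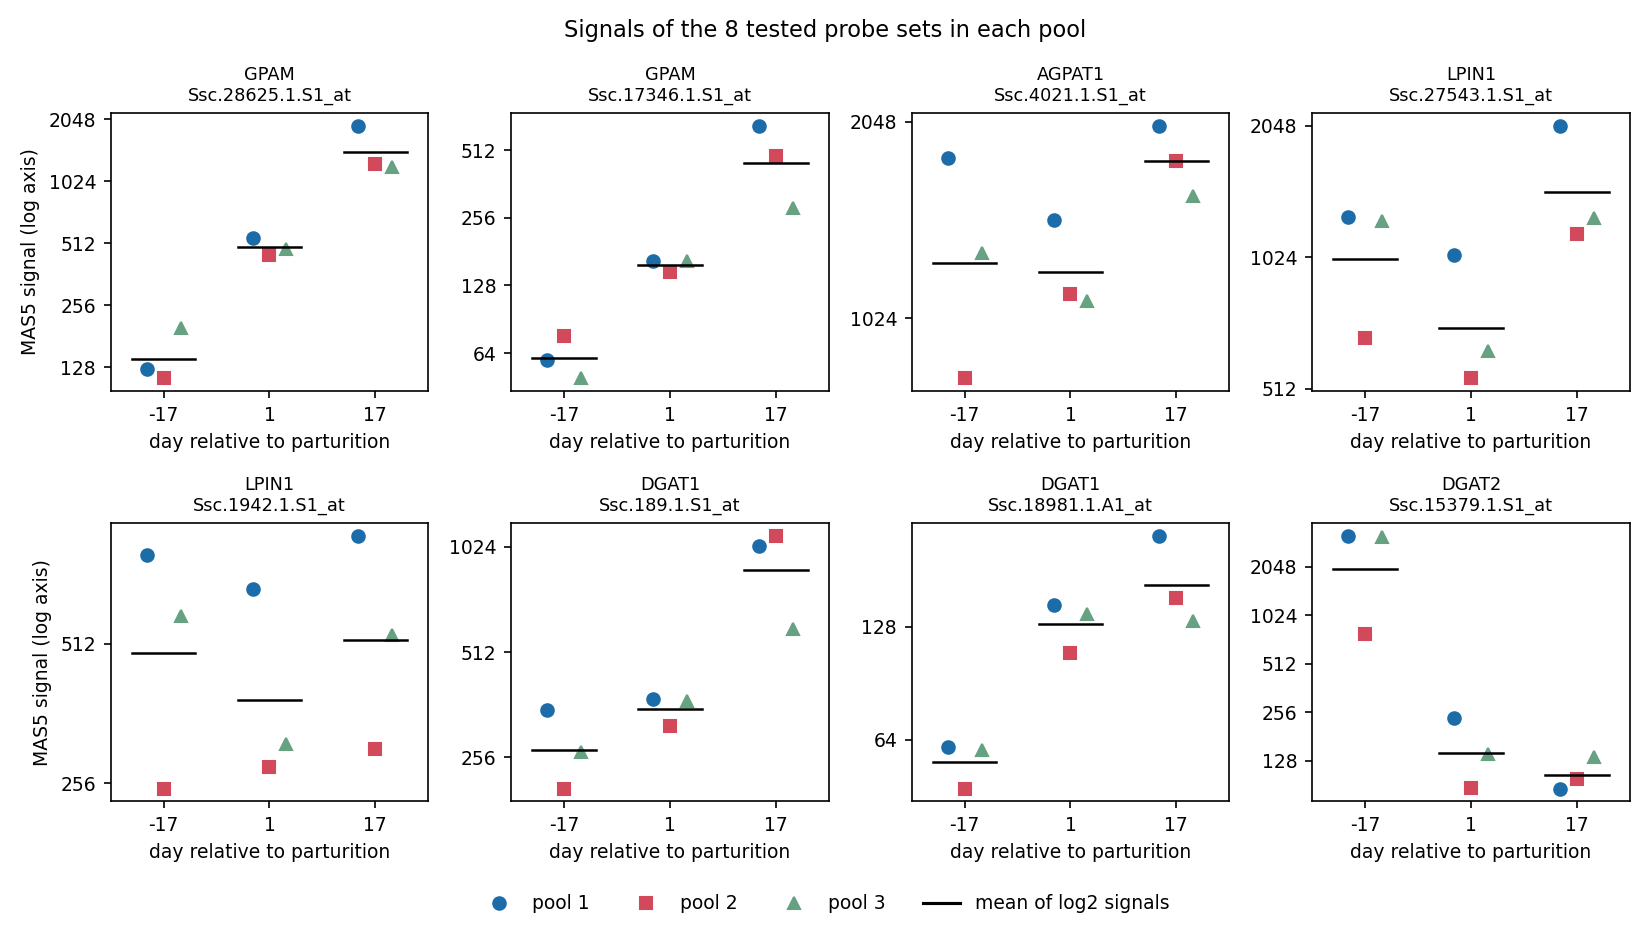
MAS5 signal (log axis) of the 8 tested probe sets in each of the 3 pools (symbols) on days -17, 1 and 17; lines are means of the log2 signals. Both GPAM probe sets climb from day to day with no overlap of pools, while DGAT2 lies at 778 or above on day -17 and at 234 or below afterwards.

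GPAM, the mitochondrial enzyme of the first step, had signals of 125, 113 and 198 in pools 1, 2 and 3 on day -17. They were 545, 447 and 482 on day 1 and 1903, 1245 and 1198 on day 17 (probe set Ssc.28625.1.S1_at). Every pool of a later day lay above every pool of an earlier one. The gene rose by 1.79 ± 0.25 to day 1 (3.47-fold, limma adjusted p = 0.000968) and by a further 1.53 ± 0.25 to day 17 (2.89-fold, adjusted p = 0.00516). Day 17 stood 10.0-fold above day -17 (3.33 ± 0.25, adjusted p = 9.19e-06). All 3 calls were also made with E. coli scaling, at 1.37, 0.66 and 2.02.

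A second GPAM probe set, Ssc.17346.1.S1_at, gave signals of 59.5, 76.5 and 49.4, then 164, 147 and 164, then 657, 479 and 284. Its pools did not overlap between days either, although on day -17 all 3 were under the filter level. It rose by 1.38 ± 0.31 (limma adjusted p = 0.0104; at least 1.78-fold against the filter level) and by 1.50 ± 0.31 (adjusted p = 0.0129); the later rise was 0.62 with an adjusted p of 0.101 under E. coli scaling. Across the 9 arrays the log2 signals of the 2 probe sets had a Pearson correlation of 0.951, which is a description, since both read 1 gene on the same arrays.

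GPAT4, the acyltransferase of the same step in the endoplasmic reticulum, belongs to the list of other acyltransferases and phosphatases; mice without it make milk poor in fat. Its signals were 820.5, 615 and 652 on day -17, 2843, 2128 and 2482 on day 1, and 5963, 5326 and 5882 on day 17. As with GPAM, no pool of a later day overlapped an earlier day. GPAT4 rose by 1.84 ± 0.15 (limma adjusted p = 5.29e-05) and then by 1.21 ± 0.15 (adjusted p = 0.0018), though the later step was 0.34 with an adjusted p of 0.081 under E. coli scaling. By day 17 it stood 8.28-fold above day -17.

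AGPAT1, the enzyme of the second acylation, had signals of 1802, 828 and 1289 on day -17, 1450.2, 1116 and 1088 on day 1, and 2021, 1785 and 1576 on day 17. Days -17 and 1 overlapped, and the 3 pools of day 17 lay above the 3 of day 1. The difference from day -17 to day 1 was -0.043 ± 0.25 (95% interval -0.60 to 0.51; limma adjusted p = 0.92). From day 1 to day 17 it was 0.56 ± 0.25 (adjusted p = 0.16), and from day -17 to day 17 0.52 ± 0.25 (adjusted p = 0.112). With a fixed block for the pool number this last difference passed the test (0.52, adjusted p = 0.0411; 0.0775 as a random block), as it did without pool 1 of day -17 (0.79, adjusted p = 0.0175), while under E. coli scaling its sign turned (-0.78, adjusted p = 0.0188). On day -17 the highest AGPAT1 pool was 2.17 times the lowest, against 1.33 on day 1 and 1.28 on day 17.

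Its relatives went different ways. AGPAT5 was lower on day 17 than on day 1 by 0.68 ± 0.20 (limma adjusted p = 0.0473), a call lost whichever array was left out, with adjusted p of 0.0536 to 0.144. AGPAT4 fell from 177, 147 and 163 on day -17 to 56.4, 61.4 and 94.6 on day 17 (-1.23 ± 0.31, adjusted p = 0.00893). AGPAT3, named after its values were seen, had differences from day -17 of 0.58 ± 0.17 on day 1 and 0.56 ± 0.17 on day 17 (adjusted p = 0.033 and 0.0211). Under E. coli scaling the first was no longer called (0.15), and the second turned to -0.74. The first call was also lost without pool 1 (adjusted p = 0.082) or pool 3 (0.0612) of day -17, or pool 2 (0.0676) or pool 3 (0.101) of day 1. The second was lost without pool 1 of day -17 (0.37, adjusted p = 0.0605) or any pool of day 17 (0.0502 to 0.0605).

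LPIN1, the lipin, had signals of 1266, 667 and 1239.9 on day -17, 1038, 540.0 and 626 on day 1, and 2048, 1158 and 1259 on day 17 (Ssc.27543.1.S1_at). Pools of days -17 and 1 overlapped, whereas the 3 pools of day 17 lay above those of day 1. The differences were -0.53 ± 0.32 to day 1 (limma adjusted p = 0.259), 1.03 ± 0.32 from day 1 to day 17 (2.04-fold, adjusted p = 0.0599) and 0.50 ± 0.32 over the whole span (adjusted p = 0.222). All 3 passed when pool number was a fixed block term (adjusted p = 0.0494, 0.00648 and 0.0375), and the middle one alone as a random block (0.184, 0.0309 and 0.157). The middle one also passed when pool 2 of day -17 (adjusted p = 0.04) or pool 1 of day 1 (1.31, adjusted p = 0.0249) was left out. Under E. coli scaling it was 0.16. Its limma adjusted p reached 0.185 without 1 array and 0.677 over all alternatives.

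The second LPIN1 probe set, Ssc.1942.1.S1_at, read 796, 249 and 587, then 674, 278 and 312, then 876, 303 and 534. Pool 1 was the highest on every day, all days overlapped, and the largest of its 3 differences was 0.43 (limma adjusted p = 0.603). The SD of its log2 signals within a day, 0.70 to 0.87, was larger than each of its differences between days. LPIN2, a lipin named here after its values were seen, read 64.5, 118 and 120.4 on day -17, 212, 459.8 and 301 on day 1, and 341, 367 and 252 on day 17. It rose by 1.67 ± 0.33 to day 1 (adjusted p = 0.0063) and stood 1.70 ± 0.33 above day -17 on day 17 (adjusted p = 0.0024), with 0.40 and an adjusted p of 0.271 for the latter under E. coli scaling.

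DGAT1, the last-step enzyme that mice need for lactation, had signals of 349, 208 and 265 on day -17, 376, 315 and 371 on day 1, and 1027, 1099 and 595 on day 17 (Ssc.189.1.S1_at). Days -17 and 1 overlapped, and all 3 pools of day 17 lay above both earlier days. The difference to day 1 was 0.40 ± 0.26 (95% interval -0.18 to 0.97; limma adjusted p = 0.286). From day 1 to day 17 DGAT1 rose 2.48-fold (1.31 ± 0.26, adjusted p = 0.0113), and it ended 3.27-fold above day -17 (1.71 ± 0.26, adjusted p = 0.000584). Neither rise passed the test with E. coli scaling, at 0.44 (adjusted p = 0.178) and 0.41 (adjusted p = 0.195).

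The other DGAT1 probe set, Ssc.18981.1.A1_at, was dimmer and passed the filter through the later days alone. It read 61.4, 47.5 and 60.1 on day -17, all under the filter level, then 146, 109 and 138, then 223, 152 and 132. Day 1 lay above day -17 without overlap, and days 1 and 17 overlapped. It rose by 1.22 ± 0.29 to day 1 (at least 1.46-fold against the filter level; limma adjusted p = 0.0137, 0.0506 without pool 3 of day 1), with 0.34 ± 0.29 from day 1 to day 17 (adjusted p = 0.459). Day 17 stood 1.56 ± 0.29 above day -17 (at least 1.85-fold against the filter level; 0.26, adjusted p = 0.424, under E. coli scaling). The correlation of the 2 probe sets over the 9 arrays was 0.803. With the mean of both probe sets DGAT1 was called higher on day 1 (0.81, adjusted p = 0.0366). The difference between the 2 probe sets was not tested.

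DGAT2, the other enzyme of the last step, went the opposite way. Its signals were 3179, 778 and 3119.7 on day -17, 234, 86.6 and 139.7 on day 1, and 85.6, 98.1 and 135 on day 17. All 3 pools of late pregnancy lay above all 6 later ones, although pool 2 of day -17 was 4.08 times below pool 1. Days 1 and 17 overlapped, and 2 of the 3 pools of day 17 were still at or above the filter level. DGAT2 fell by 3.80 ± 0.53 to day 1 (14.0-fold lower, limma adjusted p = 0.00102). The difference from day 1 to day 17 was -0.44 ± 0.53 (95% interval -1.61 to 0.73, adjusted p = 0.611; under E. coli scaling -1.31, adjusted p = 0.046). Day 17 stood 18.9-fold below day -17 (-4.24 ± 0.53, adjusted p = 0.000179). Both falls were called in all 19 alternatives, with differences from -4.48 to -3.45 and from -4.92 to -3.90 when an array was left out.

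**Figure D2:**
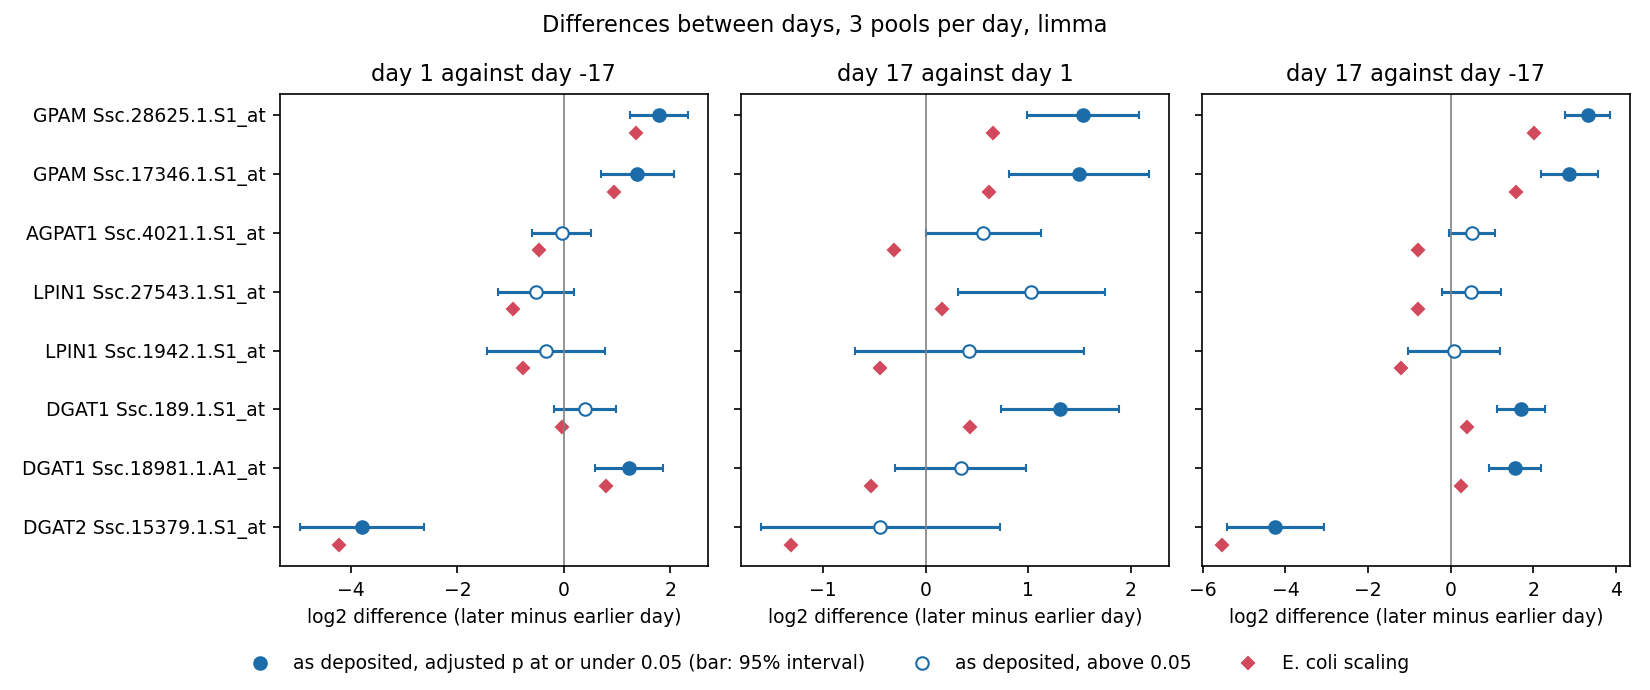
Log2 differences (later minus earlier day, 3 pools a day) of the 8 tested probe sets in the 3 comparisons, with 95% intervals; filled points passed an adjusted p of 0.05, and the second mark of each row is the difference under E. coli scaling. E. coli scaling moves every point of a comparison by the same amount. The 3 rises of GPAM Ssc.28625.1.S1_at and both falls of DGAT2 pass under both scalings. The later step of the other GPAM probe set (0.62) does not, nor do the rises of DGAT1 Ssc.189.1.S1_at (0.44 and 0.41). The rise of DGAT1 Ssc.18981.1.A1_at from day -17 to day 17 (0.26) is lost too. AGPAT1 and LPIN1 Ssc.1942.1.S1_at change sign for day 17 against either earlier day. Signs also turn for LPIN1 Ssc.27543.1.S1_at (day 17 against day -17, -0.80), DGAT1 Ssc.18981.1.A1_at (day 17 against day 1, -0.53) and DGAT1 Ssc.189.1.S1_at (day 1 against day -17, -0.031).

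The contrast between the enzymes of the last step was also taken within each array, where scaling cancels. The log2 signal of DGAT1 minus that of DGAT2 was -3.19, -1.90 and -3.56 in the 3 pools of day -17. It was 0.68, 1.86 and 1.41 on day 1, and 3.59, 3.49 and 2.14 on day 17. No pool of a later day overlapped an earlier day. The means were -2.88 ± 0.87, 1.32 ± 0.60 and 3.07 ± 0.81 (SD, n = 3), so the difference shifted by 4.20 to day 1 and by 5.95 to day 17. The pair was chosen with earlier results of these data known, so these values are a description, and no p-value is given. Each probe set binds with its own strength, so the sign of a single value does not say which transcript was more abundant; the shift between days does not depend on that.

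**Figure D3:**
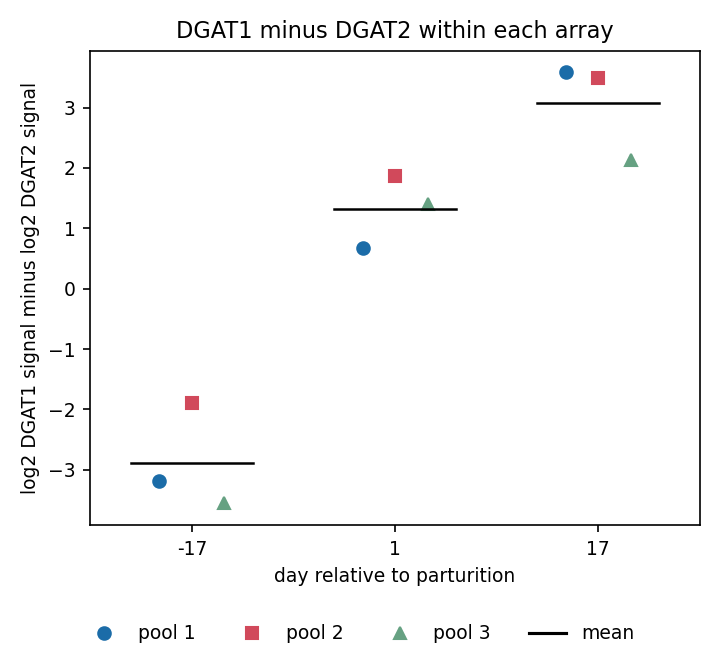
Log2 signal of DGAT1 (Ssc.189.1.S1_at) minus log2 signal of DGAT2 within each array, by day; symbols are pools and lines are means of 3. The mean moves from -2.88 on day -17 to 1.32 on day 1 and 3.07 on day 17, and pools of different days do not overlap.

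Markers of fat cells moved with DGAT2 in part. Of 11 adipocyte markers 7 were annotated and 6 tested, and none was listed at 0. ADIPOQ (adiponectin) read 547, 73.9 and 319 on day -17, 195, 33.5 and 4.58 on day 1, and 23.2, 8.87 and 7.22 on day 17. RBP4 (retinol-binding protein) read 1017, 352 and 581, then 241, 42 and 12.9, then 6.33, 7.46 and 8.54. CFD (adipsin) read 10783, 3437 and 4905, then 6015, 1786 and 1417, then 2076, 1958 and 2155. All 3 were lower on day 17 than on day -17 without overlap of pools (ADIPOQ -4.36 ± 1.23, limma adjusted p = 0.0155; RBP4 -6.33 ± 0.88, 0.000364; CFD -1.46 ± 0.51, 0.0394). On day 17 all 3 pools of ADIPOQ and of RBP4 were under the filter level, against which they were at least 2.53-fold and 6.39-fold lower. ADIPOQ reached the filter level on 3 of 9 arrays and RBP4 on 4, so both passed the filter through the earlier days alone. Pool 2 of day -17 was under it for ADIPOQ, and without any 1 of its 3 arrays ADIPOQ was not tested. The CFD call was lost without pool 1 (0.132) or pool 3 (0.0681) of day -17 or any pool of day 17 (0.0817 to 0.0931).

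CIDEA and FABP4, from the same list, went up instead. CIDEA, a lipid droplet protein also known from milk-secreting cells, rose from 608, 159 and 426 on day -17 to 6537, 5761 and 5297 on day 17 (4.08 ± 0.45, limma adjusted p = 8.63e-05). FABP4, a fatty acid carrier also made by capillary endothelium, read 14145, 6393 and 11197 on day -17 and 16789, 15796 and 15070.0 on day 17; its difference of 0.66 ± 0.24 (adjusted p = 0.0447) turned to -0.64 under E. coli scaling. It was 0.32 with quantile normalization (adjusted p = 0.33), and was no longer called without pool 2 (0.33, adjusted p = 0.111) or pool 3 (0.0631) of day -17, pool 3 of day 1 (0.0597) or any pool of day 17 (0.0814 to 0.115). In all, 1 tested adipocyte marker was higher and 1 lower on day 1 than on day -17 (2 and 3 with the pool number as a block). The matching shares of all 5670 tested genes were 15.3% and 10.4%. On day 17 against day -17, 2 markers were higher and 3 lower, beside 23.8% and 23.8% of all tested genes. Without pool 1 or pool 3 of day -17 the count of lower markers was 1. The median was -1.36 beside -0.032 over all 5670 tested genes. The summed signal of the list, set mostly by FABP4 and CFD, ranged over 10589 to 27916, 17093 to 27325 and 22664 to 25689 on the 3 days, and the mean log2 signal over 8.41 to 10.2, 7.65 to 9.53 and 7.82 to 8.35.

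**Figure D4:**
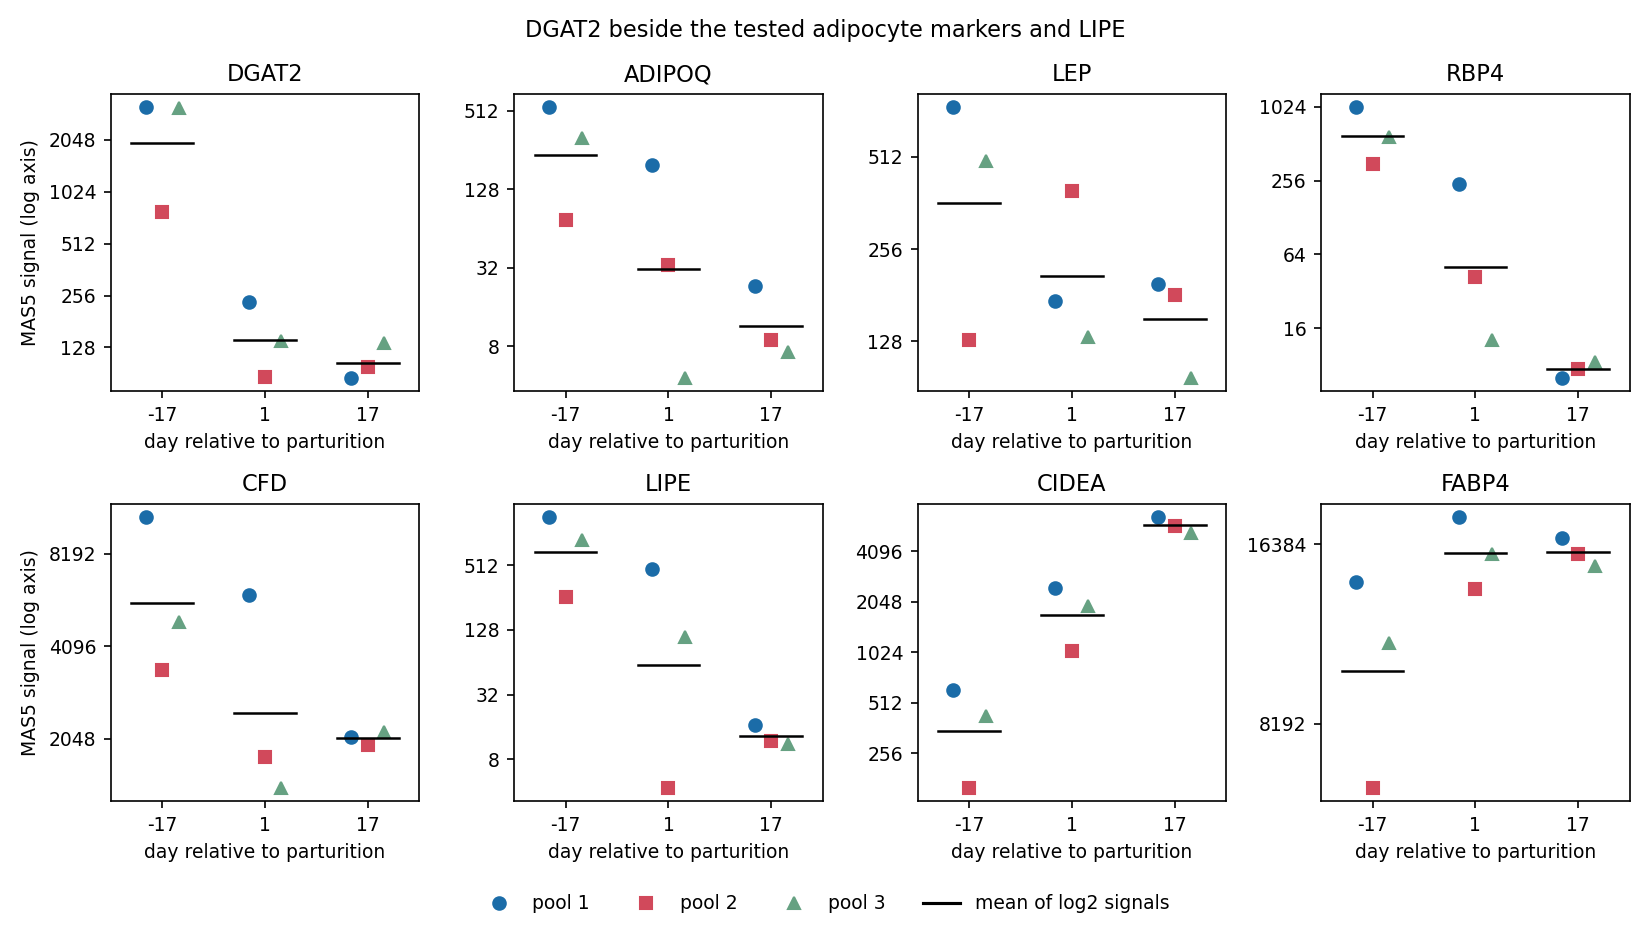
MAS5 signal (log axis) of DGAT2, the 6 tested adipocyte markers and LIPE in each pool by day; lines are means of log2 signals. All 8 genes have their lowest day -17 value in pool 2. DGAT2, ADIPOQ, LEP, RBP4, CFD and LIPE have a lower mean after parturition. For LEP (leptin) the differences from day -17 were -0.79 on day 1 and -1.25 on day 17, neither called (limma adjusted p = 0.373 and 0.118). CIDEA climbs to 5297 or above on day 17, and FABP4 lies between 13755 and 18169.9 on days 1 and 17. With E. coli scaling the FABP4 difference turns.

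The order of the pools was counted after the values were seen. On day -17, pool 2 was the lowest of the 3 pools for 5 of the 5 genes and for 7 of the 7 annotated adipocyte markers, where it was the lowest for 28.0% of all tested probe sets. On day 1, pool 1 was the highest for 5 of the 5 genes and for 6 of the 7 adipocyte markers, where it was for 34.4% of all, and it was the lowest for 11 of the 12 luminal epithelial markers (39.6% of all). Pool 2 was the lowest for 4 of the 5 genes on day 1 and for 1 on day 17. Of 6 fibroblast markers, pool 2 was the lowest for 5 and pool 1 the highest for 5, on day -17 and again on day 1. The second GPAM probe set differed, with its highest day -17 signal (76.5) in pool 2. Of 12 tested luminal markers 8 were higher and 0 lower on day 1, and 8 higher and 2 lower on day 17, than on day -17 (7 and 2, and 5 and 4, under E. coli scaling), where 15.3% and 10.4%, and 23.8% and 23.8%, of all 5670 tested genes were. The count of lower markers on day 1 was 2 without pool 1 of day -17 and with the fixed block. On day 17 it was 0 without pools 2 or 3 of day -17 or any pool of day 17, and 3 without pool 1 of day -17 or of day 1. Their summed signal went from 69424 to 89755 over 186971 to 266623 to 387066 to 388152, with CSN1S1 and CSN3, 2 casein genes, the brightest. The rises called on day 1 included the milk protein genes CSN1S1, CSN2, CSN3 and LALBA, and also EPCAM, CLDN3 and CLDN4. The keratins KRT8, KRT18 and KRT19 stood at -1.11, -1.33 and -0.45 on day 1, none of them called (limma adjusted p = 0.116, 0.081 and 0.472). Both markers called lower on day 17 than on day -17 were keratins, with the losses on leaving out arrays given above. Of the fibroblast markers, with DCN and LUM the brightest, 0 were higher and 5 lower on day 17 than on day -17, and their summed signal went from 37871 to 52590 down to 16702 to 18556. Of 5 tested macrophage markers, with AIF1 and CD163 the brightest, 1 was higher and 1 lower in that comparison, and leaving out any pool of days -17 or 17 left 0 lower. No skeletal muscle marker passed the filter, and of its 6 annotated genes 4 were under the filter level on all 9 arrays. The part of these cell types in the differences of DGAT2, GPAM and DGAT1 was not tested.

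Around the 5 genes, a fixed list of 24 other acyltransferases and phosphatases had 10 tested. On day 1 against day -17, 4 were higher and 0 lower, with a median of 0.59; without pool 1 of day -17, pool 2 of day 1 or pool 3 of day 1 the count of higher genes was 2. On day 17 against day 1, 1 was higher and 1 lower (median -0.064), and on day 17 against day -17, 4 were higher and 2 lower (median 0.33). The matching shares over all 5670 tested genes were 15.3% higher and 10.4% lower, 8.02% and 8.57%, and 23.8% and 23.8%, with medians of -0.00082, -0.035 and -0.032. Under E. coli scaling the list held 2 higher and 3 lower, 0 and 8, and 1 and 6.

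Genes that supply glycerol 3-phosphate went different ways. GK, the kinase that makes it from glycerol, rose from 298, 268 and 335 on day -17 to 1233, 1101 and 1596 on day 1 (2.11 ± 0.20, limma adjusted p = 0.000114) and read 1172, 1617 and 1806 on day 17. GPD1, the dehydrogenase that makes it from a glycolytic intermediate, read 846, 204 and 651 on day -17, 287, 67.4 and 102 on day 1, and 34.7, 56.6 and 29.1 on day 17. Its difference from day -17 to day 17 was -3.65 ± 0.61 (adjusted p = 0.00105), at least 5.21-fold lower against the filter level, which all 3 pools of day 17 were under, while the -1.95 ± 0.61 of day 1 (adjusted p = 0.0429) was lost without pool 1 or 3 of day -17, pool 2 or 3 of day 1 or any pool of day 17, with adjusted p up to 0.134. Like DGAT2, GPD1 was lowest in pool 2 on days -17 and 1. GPD1L, a related enzyme, was higher on day 17 than on day 1 (0.90 ± 0.21, adjusted p = 0.0217), a call lost under E. coli scaling (0.03) and without pool 2 (0.0668) or pool 3 (0.08) of day 17. Of the 5 tested genes of this list 3 were higher and 1 lower on day 17 than on day -17 (1 and 2 under E. coli scaling). Among all 5670 tested genes 23.8% were higher and 23.8% lower.

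The phospholipid branch draws on the same phosphatidic acid and diacylglycerol. Of its 14 tested genes, 1 was higher and 2 lower on day 1 than on day -17 (1 lower without pools 2 or 3 of day -17 or pool 3 of day 1). Among all tested genes 15.3% were higher and 10.4% lower on that day. On day 17, 3 were higher and 2 lower (median 0.083; 1 and 11 under E. coli scaling; 1 lower without pool 2 of day 17), beside 23.8% higher and 23.8% lower among all tested genes. CEPT1, which makes phosphatidylcholine and phosphatidylethanolamine from diacylglycerol, rose by 1.14 ± 0.18 to day 1 (limma adjusted p = 0.0021) and stood 1.85 ± 0.18 above day -17 on day 17. Its step from day 1 to day 17 (0.71, adjusted p = 0.0305) turned to -0.17 under E. coli scaling, and was lost without pools 2 or 3 of day 1 or pools 1 or 3 of day 17, with adjusted p up to 0.105. CHPT1, which makes phosphatidylcholine, fell by 0.88 on the log2 scale to day 1 (-0.88 ± 0.18, adjusted p = 0.00773). CDS1, which takes phosphatidic acid out of the triglyceride route, was lower on day 17 than on day -17 (-0.99 ± 0.27, adjusted p = 0.0119).

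**Figure D5:**
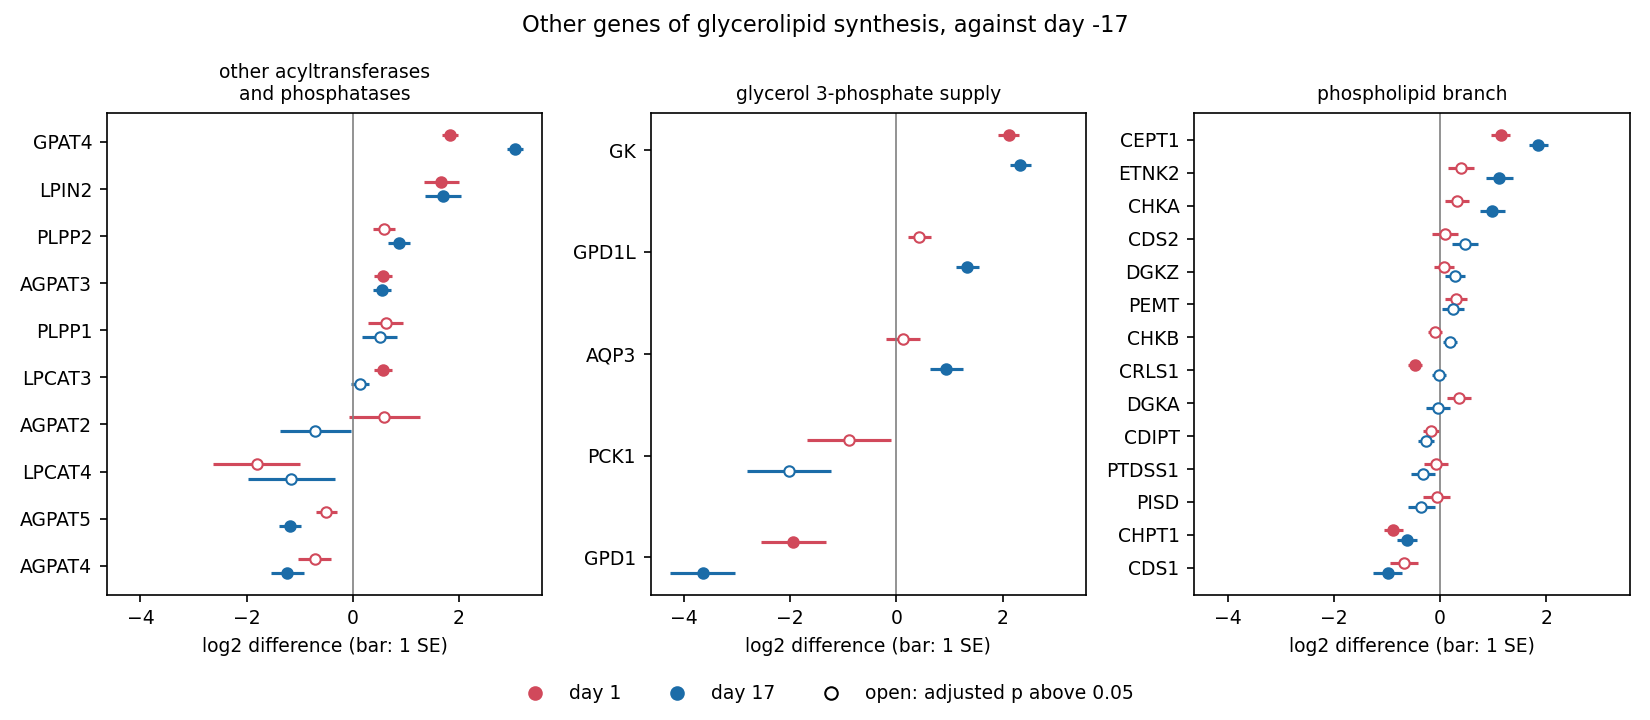
Log2 differences from day -17 (points, with 1 SE) of the tested genes of 3 fixed lists on day 1 and day 17; open points did not pass an adjusted p of 0.05. GPAT4, GK and CEPT1 lie farthest to the right in their lists on day 17, at 3.05, 2.33 and 1.85, and GPD1 lies farthest to the left at -3.65; E. coli scaling would move all points left by 0.43 on day 1 and 1.30 on day 17.

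Of 8 tested regulators of lipid synthesis, 3 were higher and 0 lower on day 1, and 5 were higher and 1 lower on day 17, than on day -17 (1 and 4 on day 17 under E. coli scaling). Among all 5670 tested genes, 15.3% were higher and 10.4% lower on day 1, and 23.8% and 23.8% on day 17. INSIG1, which holds the sterol-regulated transcription factors in the endoplasmic reticulum, rose by 2.96 ± 0.22 to day 1 (limma adjusted p = 2.73e-05) and stood 3.85 ± 0.22 above day -17 on day 17. Its later step, 0.89 (adjusted p = 0.0259), was 0.018 under E. coli scaling and was lost without pools 2 or 3 of day 1 or pools 1 or 3 of day 17, with adjusted p of 0.064 to 0.0908. PPARGC1A, a coactivator of mitochondrial genes, was lower on day 17 than on day -17 (-2.75 ± 0.83, adjusted p = 0.0206), a call lost without pool 2 (0.0557) or pool 3 (0.075) of day -17 and at -1.60 without pool 2 of day 17. All 3 pools of day 17 were under the filter level, against which it was at least 2.64-fold lower.

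Of 10 tested droplet and lipolysis genes, 3 were higher and 0 lower on day 1, and 5 were higher and 2 lower on day 17, than on day -17 (3 and 5 on day 17 under E. coli scaling; 1 lower on day 17 without pools 1 or 3 of day -17 or pools 2 or 3 of day 17). The shares of all 5670 tested genes were 15.3% and 10.4% on day 1, and 23.8% and 23.8% on day 17. CIDEB, a droplet protein, rose from 33.5, 49.3 and 59.4 to 328, 519.8 and 300.0 on day 1 (3.01 ± 0.32, limma adjusted p = 0.000238). Its day -17 pools were under the filter level, against which day 1 was at least 4.17-fold higher. LIPE, the hormone-sensitive lipase of fat cells, read 1425, 257 and 876 on day -17, 471, 4.35 and 110.3 on day 1, and 16.8, 12 and 11.2 on day 17 (-5.70 ± 1.36 by day 17, adjusted p = 0.00663). On day 17 all 3 were under the filter level, against which LIPE was at least 7.38-fold lower. On day 1 its pools spanned over an order of magnitude. LPL, which frees fatty acids from blood lipoproteins, and ABHD5, an activator of lipolysis, were called at 1.31 ± 0.37 and -0.64 ± 0.19 on day 17 against day 1 (adjusted p = 0.0436 and 0.0469). Both calls were lost without pool 3 of day -17 or any pool of days 1 or 17, with adjusted p up to 0.12 and 0.13, and LPL was at 0.43 (adjusted p = 0.311) under E. coli scaling.

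The genes whose log2 signals over the 9 arrays ran most like each member were taken from 5669 tested genes. For DGAT2 they were PCED1A (Pearson r = 0.992), ME1 (0.986), the malic enzyme that makes NADPH for fatty acid synthesis, and ALDOC (0.981), a glycolytic aldolase. For GPAM they were CYSTM1 (0.991), ADIPOR1 (0.990), an adiponectin receptor, and GGT1 (0.987). For DGAT1 they were ISOC1 (0.974), RAB18 (0.970), a GTPase found on lipid droplets, and EMC4 (0.969). AGPAT1 ran most like MARCH2 (0.936), MAN1A1 (0.936) and KLC1 (0.928), and LPIN1 most like LOC100038328 (0.921), TGOLN2 (0.909) and RFC1 (0.894). These are descriptions over 9 arrays that share the 3 days and each array's scaling. GGT1 lay under the filter level on every array of days -17 and 1 and passed the filter through day 17 alone. LOC100038328 and TGOLN2 were under it on every array of day 1 and in pool 2 of day -17. LOC100038328 was also under it in pool 3 of day -17 and pool 2 of day 17. Likeness to these 3 genes rests in part on such dim signals. Under E. coli scaling the value for GPAM with CYSTM1 went to -0.38 and with ADIPOR1 to -0.35, and that for DGAT1 with EMC4 to -0.037, while the 3 for DGAT2 stayed at 0.97 or above and the 3 for AGPAT1 at 0.930 or above. Among the members themselves, r over the 9 arrays was 0.880 for GPAM with DGAT1, 0.852 for AGPAT1 with LPIN1, -0.832 for GPAM with DGAT2 and -0.610 for DGAT1 with DGAT2.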

How the data were processed

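The deposited table holds an intensity for each probe set on each array, on a linear scale; the submitters' processing notes name MAS5 as the authors' tool, and its version is not given in the sources used here. Symbols are those of GEO's platform annotation (10099 probe sets with 1 symbol, 198 with several, 13826 with none here); a gene with several tested probe sets is represented by that with the highest mean log2 signal. The 124 control probe sets were left out. Tests were limited to probe sets whose signal reached the 40th percentile of the array's endogenous probe sets on at least 3 of 9 arrays (15519 tested). Signals were taken to log2 without a pseudocount and fitted together in limma 3.58.1 (R 4.3.3; lmFit, eBayes with an intensity trend), with day as the only term, two-sided, at a Benjamini-Hochberg threshold of 0.05. The code was tested on simulated data. Nothing says more of the replicates than that each pool holds RNA of 2 sows, so p-values measure the spread between pools.

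Whether a pool number marks the same sows on each day is not stated. Deviations from the day means correlated at 0.235 to 0.506 between same-numbered pools of days -17 and 1 and at 0.105 to 0.130 for days -17 and 17, and at 0.096 to 0.107 for days 1 and 17, just under 0.1 for the lowest pair. Pools of differing numbers correlated at -0.387 to 0.113 for days -17 and 1. For days -17 and 17 the range was -0.0739 to -0.0421, and for days 1 and 17 it was -0.0768 to -0.0268. In each comparison every same-numbered pair correlated higher than every pair of differing numbers. All 3 same-numbered pairs were over 0.1, the limit used here, in the first 2 comparisons but not in the third. By that limit alone the pairing was left unsettled, and the calls of LPIN1 and AGPAT1 depend on this choice. The main tests had day as the only term, and the pool number entered as a block among the alternatives.

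The members and lists were chosen with earlier results of these data known. Besides the members, the rule for naming genes took the called gene with the largest rise and fall of each pathway list and comparison, the 3 genes most correlated with each member, and the 2 brightest markers of each cell type; adipocyte markers beyond these, AGPAT3, LPIN2 and the counts of lowest and highest pools were added after the values were seen. Alternatives were quantile normalization, median centring, E. coli scaling, a pseudocount of 16, no filter, the 60th percentile, no intensity trend, the 6 compared samples alone, a block by pool number (fixed, or random with duplicateCorrelation), the mean over a gene's probe sets, a minimum fold of 2, and leaving out each array. Putting the pools of a day at the filter level where all 3 were under it was added after the values were seen; the filter level is no measure of background. No genome or sequence was used here.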

Additional observations from a re-analysis of the deposited data

How the results depend on the processing

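Each of 20 main results, the counts over all probe sets among them, was recomputed under up to 20 alternatives (383 values). Of these values, 347 kept direction and side of the threshold or, for counts, stayed within 1.5 times of the main value. The shift of DGAT1 minus DGAT2 is among the 20, judged by an exact permutation p-value over the days that is not printed here. The counts were 3736, 2116 and 7223 called probe sets (7028 in the F test). E. coli scaling gave 7085 (814 higher, 6271 lower), 11114 (112 and 11002) and 13156 (471 and 12685), with 13280 in the F test, and a minimum fold of 2 gave 1592, 820 and 3809. Median centring, which moved the median of all probe sets by 0.12 for day 1 against day -17, changed that split from 1860 higher and 1876 lower to 2282 and 1251. Without 1 array the counts were 2112 to 4422, 1037 to 2122, 5812 to 7605 and 5356 to 7688. Those moved by over 1.5 times were, for day 1 against day -17, without pool 3 of day -17 (2295) or of day 1 (2112), and, for day 17 against day 1, without pools 2 (1400) or 3 (1330) of day 1 or pools 1 (1078), 2 (1167) or 3 (1037) of day 17.

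For AGPAT1 on day 1 against day -17, which was not called, the sign turned with quantile normalization (0.0091), median centring (0.076) and when an array was left out (-0.34 to 0.22). Under E. coli scaling AGPAT1 was -0.31 on day 17 against day 1 and -0.78 against day -17 (range without 1 array 0.23 to 0.79). LPIN1 (Ssc.27543.1.S1_at) was then -0.96 and called on day 1 against day -17, and -0.80 on day 17 against day -17; DGAT1 (Ssc.189.1.S1_at) was -0.031, 0.44 and 0.41 in the 3 comparisons, and DGAT2 -1.31 on day 17 against day 1. The mean over probe sets gave 0.81 for DGAT1 on day 1.

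With the pool number as a fixed replicate block, LPIN1 was called at -0.53 and 0.50 and AGPAT1 at 0.52. On day 17 against day 1 LPIN1 was called at 1.03 with a fixed (adjusted p = 0.00648) or random block (0.0309); without 1 array it ranged over 0.78 to 1.31. The block changed no other call of the members' main probe sets. Among single probe sets and genes, LPIN1 Ssc.1942.1.S1_at turned to 0.019 on day 1 without pool 1 of day -17 (range without 1 array -0.82 to 0.019), and on day 17 against day -17 ranged over -0.39 to 0.49; under E. coli scaling it was -0.45 and -1.21, DGAT1 Ssc.18981.1.A1_at -0.53 on day 17 against day 1, CEPT1 -0.17, AGPAT3 -0.74 and FABP4 -0.64. The shift of DGAT1 minus DGAT2 was 5.70 with the pseudocount, 6.12 with quantile normalization and 5.61 to 6.44 without 1 array. E. coli scaling moves every difference of a comparison by the same amount by construction. The move was downward here because the mean log2 signal of the controls was higher on the later day, by 0.43, 0.87 and 1.30. The cause of that rise was not tested, nor were other causes of lost or turned differences.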
